A study of Mus musculus with 20 samples.

Results

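Dividing melanocytes of the growing hair follicle were picked out of a single-cell count of mouse back skin by their own transcripts. A cell was kept if it had at least 500 detected genes and no more than 15% of its UMIs (unique molecular identifiers, 1 per captured RNA molecule) from mitochondrial genes. It was taken as a melanocyte if Pmel, Dct, Tyrp1 and Mlana together gave at least 30 of every 10000 UMIs and Krt14 and Krt5 together fewer than 50, and as dividing if it held at least 2 UMIs of Mki67 and Top2a. The rule found 341 cells among 25611 kept cells, 167 of them in the mutant library and 174 in the control library. The other 3076 melanocytes by the same gate, 1632 mutant and 1444 control cells, held at most 1 such UMI and are called other melanocytes here.

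The cells came from dorsal skin epidermis in anagen, when the follicle grows its hair, and were counted with 10x Genomics 3' v3 chemistry. Mutant mice were Nfatc1-CreER;R26R;mTmG;Fgf5-/- and were given tamoxifen for 3 days starting at postnatal day 23 or 24. Control mice carried Nfatc1-CreER;R26R;mTmG without the Fgf5 deletion and had the same 3 days of tamoxifen starting at day 21 or 22. The labels list 16 mutant and 4 control samples, but each group was deposited as 1 matrix with no map from cells to samples, so each group is 1 sample and nothing was tested between them. Fgf5 encodes a fibroblast growth factor that ends anagen, and mice without it grow long hair. CreER is a recombinase that acts only in the presence of tamoxifen, here under the Nfatc1 promoter, which is active in stem cells of the follicle bulge, and both R26R and mTmG report its action. Genotype, tamoxifen start and library cannot be told apart, and the labels give neither an age at harvest nor a cell sort.

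Melanocytes of the follicle make melanin in membrane-bound melanosomes and hand it to the keratinocytes of the hair shaft. They descend from stem cells of the bulge and hair germ, multiply as anagen begins, fill the bulb above the dermal papilla, and are lost when the follicle regresses. Their transcription factor Mitf drives the pigment enzymes, and the receptors Kit, Ednrb and Mc1r carry signals from surrounding cells. Mki67 marks chromosomes of cycling cells and Top2a untangles DNA before chromosomes part, and both are made mainly from S phase to mitosis.

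All intervals given after a value are 95% intervals that cover counting error only, and no value has a replicate behind it. The mutant matrix held 13411 barcodes and 97817173 UMIs, the control matrix 16973 barcodes and 140880809 UMIs, with median depths in kept cells of 6177 UMIs in mutant and 5711.5 UMIs in control. The 2 matrices shared 59 barcodes, 39 of them kept, and no dividing melanocyte was among them. Expression is given as CPM, a gene's UMIs summed over a class of cells in 1 library and scaled to the same total in every class. A gene is said to have risen, fallen or changed only if its ratio was at least 2-fold, the nearer bound of the ratio's interval lay beyond 1.5-fold and the higher class had at least 100 CPM. Genes with a 3' end that is at least 20% shared with other transcripts are marked as uncertain, since reads from near-identical copies could have been split between them.

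Sox10, a neural crest factor that the rule did not use, was found in 80.8% of mutant and 73.6% of control dividing cells, against 0.540% and 0.568% of T cells picked by their receptor genes. The T cell gate lay outside the melanocyte gate. Pmel, which builds the melanosome's inner fibrils, had a UMI in 98.2% of mutant and 100% of control dividing melanocytes, at 11447 and 9727 CPM. The T cells, which should lack it, held a Pmel UMI in 29.9% of mutant and 16.6% of control cells, at 141 and 57.8 CPM, with median depths of 2004 and 2334 UMIs. Since both gates read or bar pigment genes, the gap in Pmel was fixed by the choice of cells and is given as a description. The division genes, which define the members, stood at 228 CPM for Mki67 in mutant and 181 CPM in control dividing cells, and at 339 and 259 CPM for Top2a. Members just inside the pigment gate held 33.7 UMIs per 10000 in the mutant and 34.8 in the control library, and the closest cells outside it 28.5 and 27.6. The highest keratin values inside the gate were 43.6 and 38.6 per 10000 in mutant and control, and the lowest outside were 58.4 and 84.2. At the division cut, 36 mutant and 47 control members held exactly 2 UMIs, and 116 mutant and 141 control other melanocytes held exactly 1.

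Dividing cells made up 9.28% of mutant melanocytes (7.98 to 10.7%, 167 of 1799 cells) and 10.8% of control melanocytes (9.29 to 12.4%, 174 of 1618 cells). The log2 ratio of the shares was -0.21 (-0.53 to 0.10). With 1 pooled matrix per group, that interval cannot tell whether the genotypes differ. Depth enters the rule, because a cell with more UMIs has more chances to show 2 of them. Among cells under 5000 UMIs, 1.82% of mutant and 3.91% of control melanocytes were dividing, and among cells with 30000 UMIs or more, 64.1% (25 of 39) and 53.7% (36 of 67). After each cell was thinned to 3000 UMIs, with 342 mutant and 333 control melanocytes too shallow to use, the shares were 4.94% and 4.98%. With 1 UMI of Mki67 or Top2a as the cut the shares were 15.7% in mutant and 19.5% in control, and with 4 UMIs they were 6.50% and 6.49%. At the cut of 1 UMI the log2 ratio was -0.31 (-0.54 to -0.07), and it was the one setting tried at which the interval lay wholly below 0. That interval too covers counting error only, and no difference between genotypes is read from it.

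**Figure D1:**
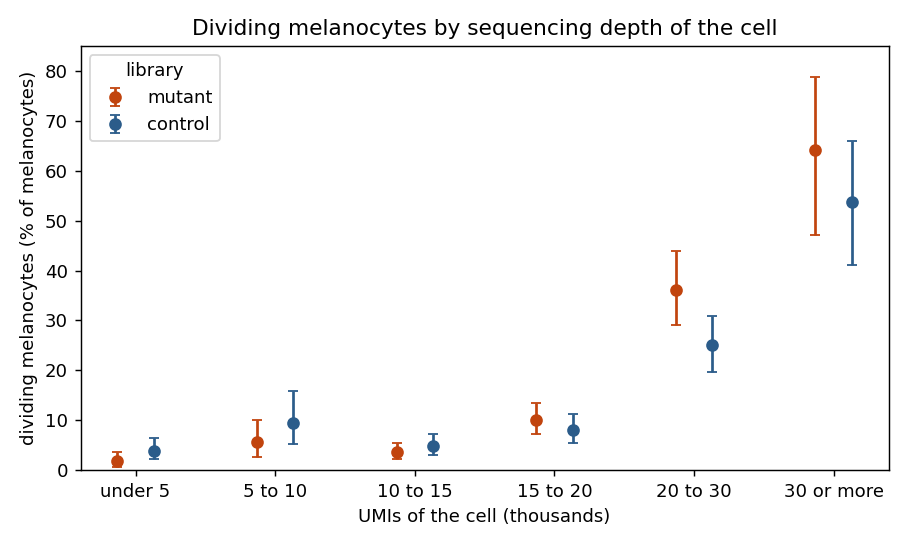
Percent of melanocytes that were dividing by the rule (y axis, percent of cells) in bins of total UMIs per cell (x axis, in units of 1000 UMIs), for the mutant and control libraries, with exact 95% intervals. In both libraries the share was highest in the deepest bin, at 64.1% in mutant and 53.7% in control, and lowest in the shallowest bin in mutant, at 1.82%, and in control, at 3.91%.

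More UMIs were counted in dividing melanocytes than in the others, in part because the rule picks deeper cells. Their median was 20567 UMIs in mutant and 21253 in control cells, against 12376.5 and 13299 in other melanocytes, and their median number of detected genes was 4465 and 4574.5, against 3240.0 and 3444.5. Scrublet, which scores a cell by its likeness to simulated doublets, called 21.6% of mutant and 15.5% of control dividing melanocytes, against 7.54% and 6.86% of other melanocytes. Keratinocyte markers of the hair matrix, inner root sheath, outer sheath and epidermis reached 20 per 10000 UMIs or more in 25.1% of mutant and 25.3% of control dividing cells, against 12.4% and 19.9% of other melanocytes. Of those dividing cells, 27 of 42 mutant and 24 of 44 control cells were also Scrublet calls. The part that doublets, free RNA or depth play in the results was not tested, and values without such cells are given beside the counts below.

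Genes of chromosome copying, condensation and separation were prominent among those higher in dividing melanocytes, along with some keratinocyte and stress genes. Of 1626 genes compared in the mutant library, 73 were higher in dividing cells (4.49% of genes) and 2 were lower (0.123%). Of 1685 genes in the control library, 89 were higher (5.28%) and 5 lower (0.297%). In both libraries at once 57 of 1482 genes were higher (3.85%) and 0 were lower. Since the rule read division genes in these same cells, the values describe what was picked and test nothing. The count was 59 with the Scrublet calls left out, 41 against other melanocytes matched on UMIs, and 56 with only cells under 20 per 10000 of the keratinocyte markers, a setting added after the data were seen. Of the 57 genes, 38 were under 100 CPM in other melanocytes of both libraries, and 17 were higher still in the cells that were no melanocytes. These shares were not counted over all compared genes, so no trait of the 57 is read from them.

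By list medians, and apart from the genes of the rule, spindle genes showed the widest gaps and mitotic regulators the next. Ube2c, which loads ubiquitin onto cyclins so that mitosis can end, stood at 398 CPM in mutant and 369 CPM in control dividing cells, against 9.46 and 14.6 CPM in other melanocytes. Its log2 ratios of dividing over other were 5.39 in the mutant (5.17 to 5.63) and 4.66 in the control library (4.47 to 4.86). Cdk1, the kinase that starts mitosis, had 178 and 187 CPM in mutant and control dividing cells, against 5.26 and 7.51 CPM in the others. Birc5 and Cdca8, members of the complex that corrects chromosome attachment, were at 246 and 121 CPM in mutant and 279 and 147 CPM in control dividing cells, and at 7.92 and 4.46 CPM in mutant and 13.01 and 8.12 CPM in control other melanocytes. Prc1, which bundles the central spindle, had log2 ratios of 5.37 and 4.66, and Cenpf, a kinetochore protein, 5.10 and 4.04. Ccnb2, a mitotic cyclin, was at 142 and 101 CPM in dividing cells and at 9.57 and 12.9 CPM in the others. The rise was shared by the centromere histone Cenpa, the condensin subunits Smc2 and Smc4, and the mitosis regulator Cdca3. It was shared too by Cks1b, a small partner of cyclin-dependent kinases, and the log2 ratios of these genes lay between 2.64 and 4.95.

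Promoters of the genes on which these results turn are shown because they hold the short sites by which such genes are usually sorted. They are RefSeq windows on GRCm38.p6 from 250 bases before to 50 bases after the start of transcription, 5′ to 3′ on the gene's own strand. Capitals mark every match, on either strand, to 4 motifs. The CHR of genes read late in the cycle was searched as TTTGAA. The CCAAT box was searched by the letters of its name. Sites of E2F, the replication factor family, were searched as TTTCCCGC or as TTTGGCGC or as TTTCGCGC. The M-box, a site class that Mitf binds, was searched as TCATGTG. Neighbouring matches can overlap, as CCAAT does with its own other strand in Ube2c, and then run together in capitals. Mki67 lies at chr7:135716330-135716629 on the minus strand, Ube2c at chr2:164769679-164769978 on the plus strand, Pclaf at chr9:65890073-65890372 on the plus strand, Dct at chr14:118052197-118052496 on the minus strand and Tyrp1 at chr4:80833963-80834262 on the plus strand.
Mki67: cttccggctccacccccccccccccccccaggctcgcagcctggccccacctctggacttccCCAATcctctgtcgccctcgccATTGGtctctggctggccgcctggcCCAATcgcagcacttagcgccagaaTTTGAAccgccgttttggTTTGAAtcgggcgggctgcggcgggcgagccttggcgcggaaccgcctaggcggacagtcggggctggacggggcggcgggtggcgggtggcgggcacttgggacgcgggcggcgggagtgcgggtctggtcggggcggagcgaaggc
Ube2c: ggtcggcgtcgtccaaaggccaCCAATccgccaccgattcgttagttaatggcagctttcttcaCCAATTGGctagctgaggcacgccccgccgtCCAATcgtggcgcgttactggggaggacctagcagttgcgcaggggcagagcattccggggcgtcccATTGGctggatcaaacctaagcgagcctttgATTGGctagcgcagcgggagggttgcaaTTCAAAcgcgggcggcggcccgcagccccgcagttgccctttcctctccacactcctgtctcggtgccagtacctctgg
Pclaf: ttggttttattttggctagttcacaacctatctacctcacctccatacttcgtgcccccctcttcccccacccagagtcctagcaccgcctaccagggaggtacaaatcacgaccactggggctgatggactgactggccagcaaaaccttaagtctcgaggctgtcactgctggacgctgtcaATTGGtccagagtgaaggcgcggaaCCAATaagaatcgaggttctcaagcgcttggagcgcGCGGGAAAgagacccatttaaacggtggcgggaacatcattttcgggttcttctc
Dct: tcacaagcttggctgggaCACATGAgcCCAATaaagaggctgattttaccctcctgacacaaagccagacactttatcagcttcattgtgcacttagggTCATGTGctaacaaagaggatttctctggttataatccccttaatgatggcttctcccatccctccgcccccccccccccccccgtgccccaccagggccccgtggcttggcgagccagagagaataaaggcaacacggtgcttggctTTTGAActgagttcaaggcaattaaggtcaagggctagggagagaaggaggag
Tyrp1: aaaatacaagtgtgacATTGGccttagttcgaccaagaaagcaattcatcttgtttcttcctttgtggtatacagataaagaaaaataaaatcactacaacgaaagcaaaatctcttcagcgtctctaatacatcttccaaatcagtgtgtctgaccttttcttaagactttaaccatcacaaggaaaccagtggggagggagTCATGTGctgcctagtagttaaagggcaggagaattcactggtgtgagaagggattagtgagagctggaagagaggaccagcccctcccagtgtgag

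Mki67 held 2 CHR and 3 CCAAT matches, and Ube2c 1 CHR and 6 CCAAT matches. The S-phase gene Pclaf held 1 E2F site and 2 CCAAT matches. The pigment gene Dct held 2 M-boxes with 1 CHR and 1 CCAAT match, and Tyrp1 1 M-box and 1 CCAAT match. Among the genes of the mitosis and spindle lists, 32 of the 45 with a promoter in the table, of 54 listed, held a CHR (71.1%), against 20.2% of all 27025 genes. E2F sites were in 14 of the 34 replication genes matched, of 42 listed (41.2%), 3 of 45 mitosis and spindle genes (6.67%) and 2.12% of all genes. M-boxes were in 6 of the 13 pigment and identity genes matched in the table, of 20 listed (46.2%), 0 of 34 replication genes and 4.31% of all genes. CCAAT was in 73.3% of the mitosis and spindle genes, 61.8% of the replication genes, 61.5% of the pigment and identity genes and 41.1% of all. A match is a run of letters in this window and no evidence of binding.

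Replication genes were higher in dividing cells by less. Their list had a median log2 ratio of 2.05 in the mutant and 1.91 in the control library, over 35 measured genes, of which 35 and 34 were positive. Over all 7556 genes measured at this level the medians were 0.04 and 0.01. Of the 35, only 3 in the mutant and 5 in the control library reached the level to be compared, and all of these rose. In both libraries 2 rose, beside 3.85% of all compared genes. Pclaf, which rides on the replication clamp, stood at 184 CPM in mutant and 223 CPM in control dividing cells, against 5.95 and 9.40 CPM in other melanocytes. Dut, which keeps uracil out of DNA, stood at 102 and 164 CPM, against 47.1 and 72.8 CPM. When no minimum level was asked for, 36 of the 42 listed genes passed the rest of the rule in both libraries. The share of all genes that did so was not computed. The mitosis list of 21 measured genes had medians of 4.75 in the mutant and 4.11 in the control library with 9 genes risen in both. The spindle list of 28 had 5.10 and 4.17 with 6 risen. In each library 9 mitosis and 7 spindle genes reached the level to be compared, so these counts also reflect how many genes that level admits.

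Chromatin and tubulin genes were higher too. Of their 14 measured genes, 11 in the mutant and 12 in the control library reached the level to be compared. In both libraries 9 rose, beside 3.85% of all compared genes, and the list medians were 2.19 and 1.79. Tubb5, a tubulin, was at 780 CPM in mutant and 811 CPM in control dividing cells, against 148 and 233 CPM in other melanocytes. The histone variant gene H2afz was at 2087 and 2327 CPM, against 646 and 835 CPM, and is uncertain because of its shared 3' end. Stmn1, which takes microtubules apart, and Tuba1b are uncertain for the same reason. Among 13 measured replication-dependent histone genes, Hist1h1b rose in both libraries, beside 3.85% of all compared genes. It was at 108 CPM in mutant and 138 CPM in control dividing cells, against 7.49 and 7.34 CPM. Replication-dependent histone genes make transcripts mostly without poly(A) tails, which 3' libraries capture poorly.

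The 11 measured brakes on the cycle had median log2 ratios of 0.58 in the mutant and 0.59 in the control library, with 10 and 8 genes positive. Of these, 2 in the mutant and 3 in the control library reached the level to be compared. Cdkn1a, the p21 inhibitor of cyclin-dependent kinases, rose in both libraries, beside 3.85% of all compared genes. It was at 144 CPM in mutant and 127 CPM in control dividing cells, against 55.6 and 59.4 CPM in other melanocytes, and at 463 and 399 CPM in the cells that were no melanocytes. No gene of the 7 measured genes of the list of G1 cyclins and Myc passed the rule in both libraries, and their medians were 0.16 and 0.10. Ccnd2, a cyclin of the first phase, was lower in dividing cells in both, at 167 CPM against 246 CPM in mutant and at 104 CPM against 149 CPM in control, short of the 2-fold rule.

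**Figure D2:**
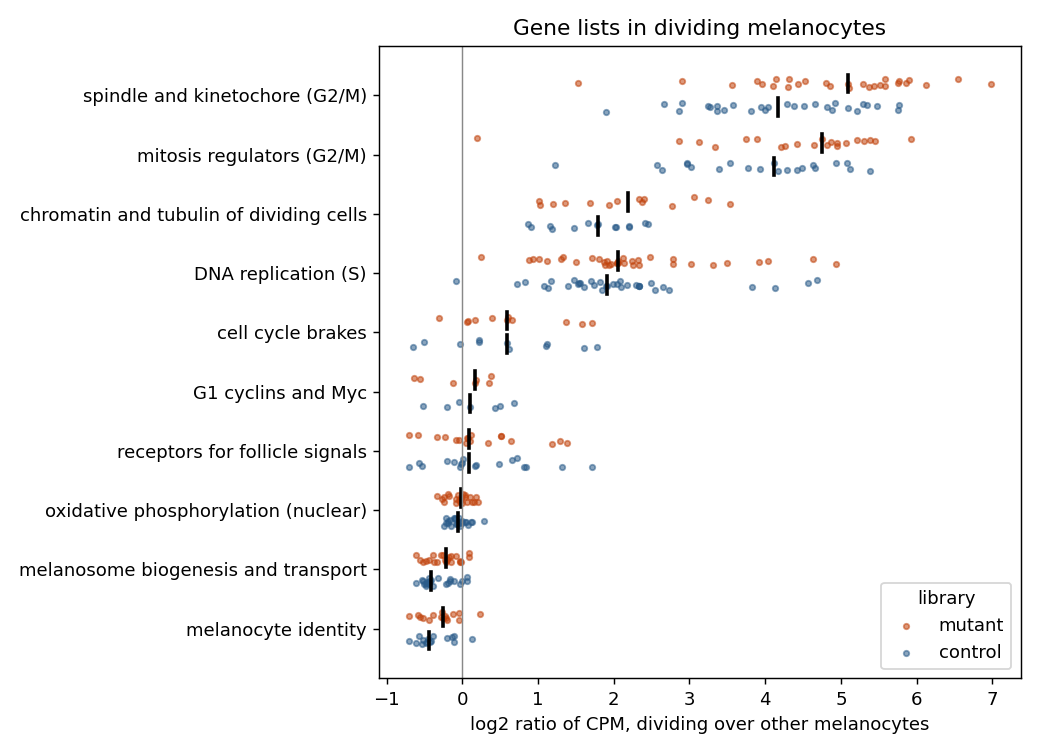
Log2 ratio of CPM of dividing over other melanocytes (x axis) for the measured genes of each list (rows), 1 point per gene with Mki67 and Top2a left out and a black bar at each median, for the mutant library above the control library. The spindle and mitosis lists lie farthest from 0, with medians of 5.10 and 4.75 in mutant and 4.17 and 4.11 in control, and the melanocyte identity list lies just below 0, at -0.26 and -0.44.

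Both classes were chosen for high pigment transcripts, so a dividing melanocyte without them could not enter, and the pigment values describe the cells chosen. Over 16 measured identity genes the median log2 ratio of dividing over other was -0.26 in the mutant and -0.44 in the control library, with 15 genes negative in each and 0 past the rule. The 23 melanosome genes had medians of -0.21 and -0.41 and the 18 melanocyte receptor and signal genes 0.09 in both, and no gene of either list passed the rule in both libraries. Tyr, the enzyme that starts melanin synthesis, had 1098 CPM in mutant and 1160 CPM in control dividing cells, against 1338 and 1516 CPM in other melanocytes. Ednrb, the endothelin receptor, stood at 915 and 996 CPM, against 1370.1 and 1475 CPM, and Mc1r, the melanocortin receptor that switches melanin from yellow to black, at 71.8 and 202 CPM, against 117 and 331 CPM. Kit, the receptor of stem cell factor, was close to level, at 208 and 187 CPM in dividing cells, against 214 and 202 CPM in the others. Scaling by composition moved these ratios as a whole, since TMM factors shifted the median of all measured genes by -0.19 in mutant and -0.08 in control, and DESeq2 size factors by -0.12 and -0.10. No direction is given for a list whose median lies nearer to 0 than these shifts, such as the nuclear oxidative phosphorylation list, at -0.02 and -0.06.

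Genes of keratinocytes were also among the 57. Krt25 and Krt71, keratins of the inner root sheath, were at 312 and 323 CPM in mutant and 576 and 598 CPM in control dividing cells, against 80.9 and 98.1 CPM in mutant and 224 and 253 CPM in control other melanocytes. The cell with the most Krt25 UMIs held 34.5% of them in mutant and 40.6% in control dividing cells. For Krt71 the share was 26.4% in mutant and 56.0% in control. In other melanocytes the shares were 36.9% and 37.5% for Krt25 and 36.3% and 40.1% for Krt71. Perp, a desmosome protein of epithelia and a target of p53, was at 203 and 289 CPM in dividing cells, against 63.2 and 71.4 CPM. In cells outside the melanocyte gate these genes were at 933, 937 and 1167 CPM in mutant and 2489.9, 2857 and 1125 CPM in control. The summed root sheath and epidermis list stood at 1417 and 1571 CPM in mutant and control dividing cells, 612 and 521 CPM in other melanocytes, and 8842 and 7378 CPM in the rest. Inner root sheath genes summed to 825 and 1780 CPM in dividing cells, 624 and 687 CPM in other melanocytes and 3363 and 8451 CPM in the rest. T cell markers summed to 14.8 and 39.5 CPM, dermal papilla markers to 3.34 and 50.5 CPM with Corin at 0 in mutant dividing cells, and endothelial markers to 3.34 and 8.76 CPM with Cdh5 at 0 in both and Cldn5 at 0 in mutant dividing cells. Fibroblast markers summed to 179 and 322 CPM in dividing cells and to 227 and 174 CPM in other melanocytes. Schwann cell markers, a list that shares Sox10 with the melanocyte lineage, summed to 207 and 108 CPM in dividing cells and to 303 and 170 CPM in other melanocytes.

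The dividing cells were not alike in how far the cycle genes had built up. By their Mki67 and Top2a UMIs, 50 mutant and 69 control cells held 2 or 3, 40 and 43 cells held 4 to 9, and 77 cells (46.1%) in mutant and 62 (35.6%) in control held 10 or more. Other G2/M genes followed that order, at 11.1, 27.1 and 70.5 per 10000 UMIs in the 3 mutant strata and at 13.9, 33.3 and 74.0 in the 3 control strata. S-phase genes stood at 7.35, 15.7 and 16.7 per 10000 in mutant and at 10.8, 15.7 and 28.3 in control. The pigment sum held no such order, at 427, 399 and 429 per 10000 in mutant and 396, 307 and 400 in control. Depth moved with the strata, with median totals of 17233, 18562 and 22134 UMIs in mutant and 16519, 19228 and 26551 in control, and its part was not tested. The median cell had 39.0 G2/M UMIs per 10000 in mutant and 38.6 in control dividing cells, against 2.31 and 2.65 in other melanocytes. The gate also left cells out, since 36 mutant (2.21%, 1.55 to 3.04%) and 43 control (2.98%, 2.16 to 3.99%) other melanocytes reached the median of the dividing cells, and their median depth was 1754.5 and 1873 UMIs. Conversely, 4 dividing cells in each library lay below the median of other melanocytes.

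After each cell was thinned to 3000 UMIs, 74.1% of mutant dividing melanocytes (66.6 to 80.6%) and 86.1% of control ones (79.9 to 91.0%) held at least 2 UMIs of replication genes. At least 2 UMIs of G2/M genes, with Mki67 and Top2a left out, were in 90.7% and 89.8%. Both kinds were present in 66.7% of mutant and 79.5% of control dividing cells, G2/M genes alone in 24.1% and 10.2%, and replication genes alone in 7.41% and 6.63%. In other melanocytes, replication genes reached 2 UMIs in 31.3% of mutant and 44.9% of control cells and G2/M genes in 19.9% and 25.02%. When cells were thinned to 6000 UMIs instead, the replication shares were 95.6% and 94.9% in mutant and control dividing cells, so no order between the libraries is read from them.

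**Figure D3:**
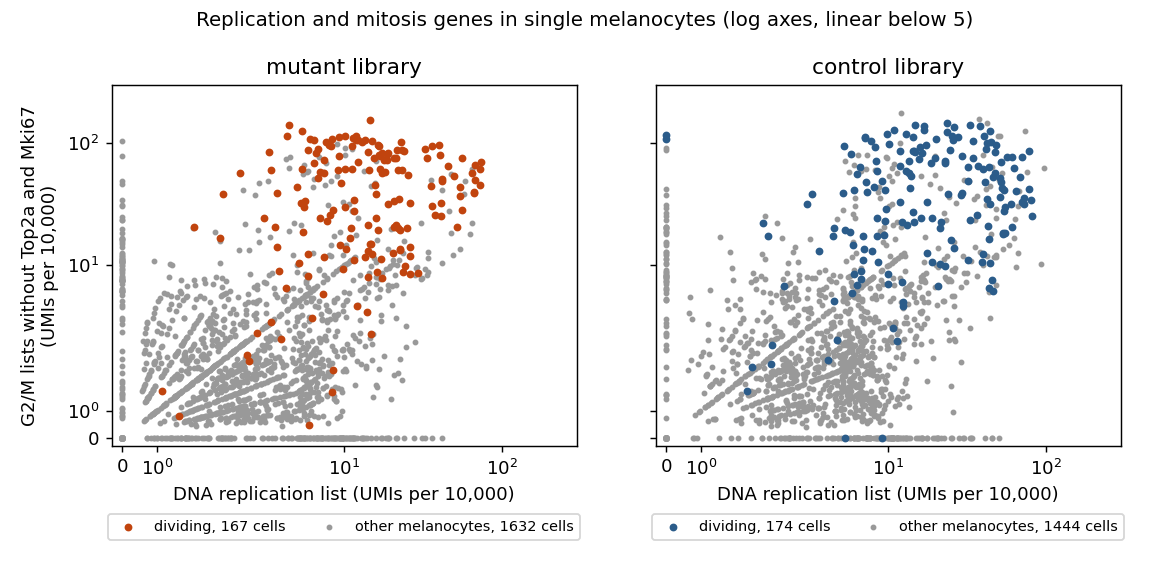
Each point is a melanocyte, dividing in colour and other in grey, by its UMIs per 10000 of the replication list (x axis) and of the G2/M lists without Mki67 and Top2a (y axis), on log axes that are linear near 0, with the mutant library left and the control library right. Dividing cells lie mostly in the upper right, with median G2/M values of 39.0 in mutant and 38.6 in control, and some lie among the other melanocytes.

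Between genotypes, the dividing melanocytes of the mutant library had lower levels of BMP targets, some sterol genes, Mitf and Mc1r, and higher levels of Neat1, Wdfy1 and Gsta4. Of 1707 genes compared in dividing cells, 27 were higher in mutant (1.58%) and 49 lower (2.87%). Other melanocytes, side by side, had 20 higher (1.22%) and 37 lower (2.26%) of 1640, and the cells that were no melanocytes 69 higher (4.35%) and 49 lower (3.09%) of 1588. The count of 27 was between 23 and 31 and that of 49 between 37 and 48 under the alternatives in scaling, gates and cell filters. The targeted gene could not check the labels at this depth: Fgf5 (GRCm38 chr5:98254184-98277030, plus strand) had 6 UMIs in 4 mutant and 10 UMIs in 8 control dividing melanocytes, at 1.67 and 2.50 CPM. The labels do not say which exons were removed, so 3' tags may be read from a deleted allele. The eGFP reporter, looked up after its value was seen, was at 489 CPM in mutant and 234 CPM in control dividing cells (log2 ratio 1.06, 0.95 to 1.18) and at 331 and 185 CPM in other melanocytes, and tomato had 0 UMIs.

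**Figure D4:**
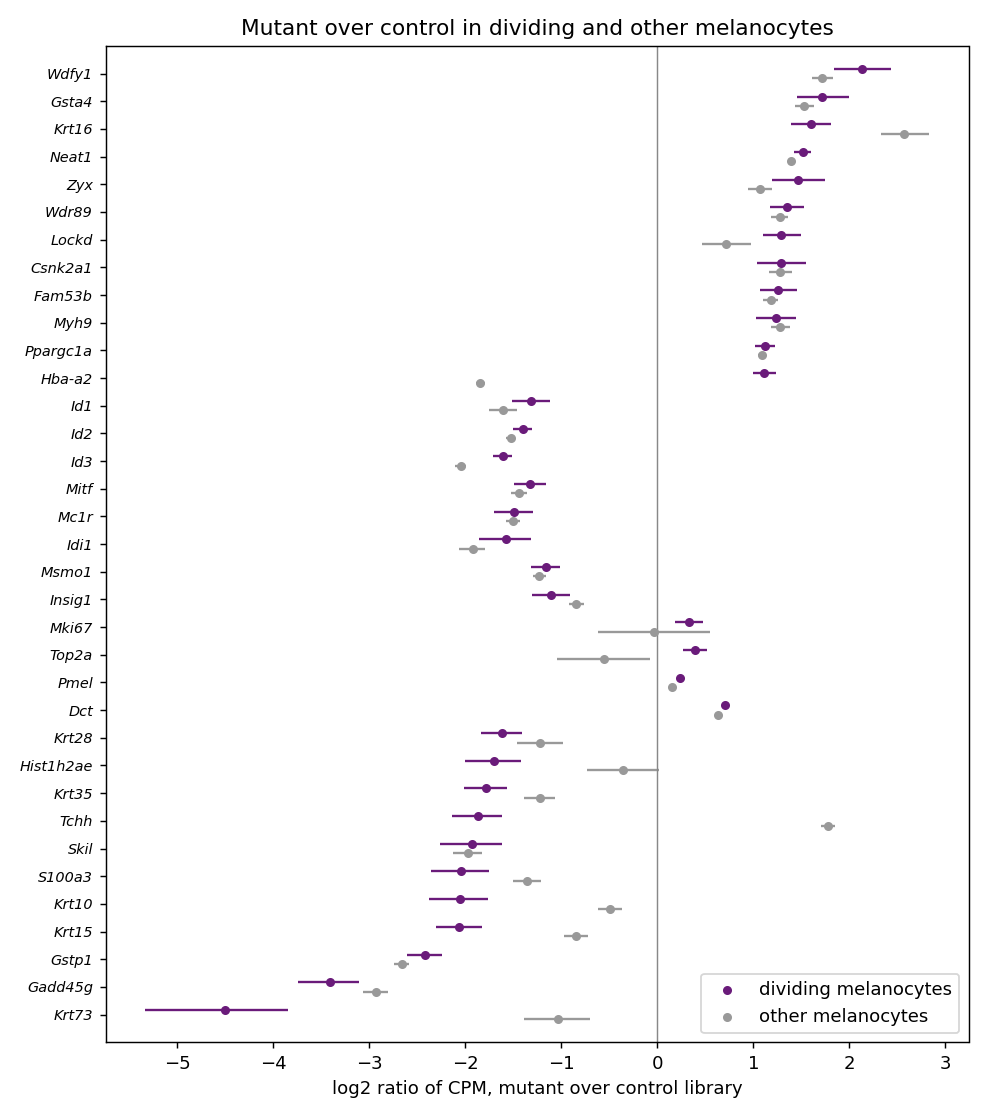
Log2 ratio of CPM of mutant over control (x axis) for named genes (rows), in dividing melanocytes and in other melanocytes, with 95% counting intervals as bars. Gadd45g, at -3.41 in dividing and -2.93 in other melanocytes, and Wdfy1, at 2.13 and 1.72, lay far from 0 in both, and Tchh lay at -1.87 in dividing and at 1.78 in other cells.

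Among the genes lower in mutant dividing cells, Gadd45g, a stress and growth-arrest gene, was at 25.6 CPM in mutant and 273 CPM in control. Its log2 ratio was -3.41 (-3.74 to -3.11), and it was found in 45 of 167 mutant and 131 of 174 control cells. Across the alternatives the ratio stayed between -4.32 and -3.32. Gstp1, a glutathione transferase, stood at 81.0 and 435 CPM in mutant and control (-2.42, -2.61 to -2.25), in 118 and 167 cells, and is uncertain because of its shared 3' end. Skil, which restrains Smad signalling and is itself a target of it, was at 27.6 and 105 CPM, in 64 and 123 cells. The same genes were lower in other melanocytes too, with log2 ratios of -2.93 for Gadd45g, -2.66 for Gstp1 and -1.98 for Skil, and none of them was among the genes, given last, with a ratio that differed between dividing and other cells.

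Of the 8 measured BMP target genes 0 had a positive ratio, and the list's median log2 ratio was -1.22, against -0.06 over all measured genes. Only 3 of the 8 reached the level to be compared, and all 3 fell, beside 2.87% of all compared genes. In other melanocytes the list median was -1.18, against -0.09. Id genes encode partners that keep other transcription factors off DNA. Id3 had 306 CPM in mutant and 937 CPM in control dividing cells (-1.61, -1.71 to -1.52), Id2 324 and 856 CPM (-1.40, -1.499 to -1.31), and Id1 78.2 and 194 CPM (-1.31, -1.52 to -1.12). Id4 at 37.8 and 82.8 CPM and Smad7 at 40.6 and 84.1 CPM were under the level the rule asks for. Cells that were no melanocytes held more Id3 and Id1 than the dividing cells did, with 1031 and 1867 CPM of Id3 and 301 and 736 CPM of Id1 in mutant and control, and the log2 ratios of mutant over control there were -0.86 and -1.29. With only cells low in keratinocyte markers, 2 genes of the list were past the rule and Id1 was not.

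The 21 measured cholesterol genes had a median of -0.48 in dividing cells and -0.75 in other melanocytes, against -0.06 and -0.09 over all measured genes. Of the 9 that reached the level to be compared in dividing cells, beside 2.87% of all compared genes, 4 fell. Among them Msmo1, a sterol oxidase, was at 134 CPM in mutant and 301 CPM in control dividing cells, Insig1, the sterol sensor's partner, at 82.7 and 178 CPM, and Idi1, an isoprenoid isomerase, at 40.9 and 123 CPM with a shared 3' end. Ebp, a later sterol enzyme, was level at 176 and 168 CPM. Immediate early genes, which answer growth signals and also tissue dissociation, had a median of -1.02 over 10 measured genes. Of the 7 that reached the level to be compared 4 were lower, beside 2.87% of all compared genes. Fos was at 164 CPM in mutant and 341 CPM in control, Egr1 at 60.4 and 131 CPM, Ier2 at 75.1 and 186 CPM and Atf3 at 146 and 316 CPM. That count was less stable than the others, at 0 when each cell was weighted equally, 0 with a pigment gate of 200 per 10000 and 0 with a division cut of 4 UMIs. In other melanocytes the list median was -0.62 and none passed. The list summed to 1643 CPM in mutant and 2672 CPM in control dividing cells, and to 1690 and 2134 CPM in other melanocytes. In the cells that were no melanocytes it summed to 5727 and 10232 CPM, so it was lower in mutant there too.

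Mitf, the lineage's master regulator, was at 111 CPM in mutant and 278 CPM in control dividing cells (-1.32, -1.49 to -1.16), and was found in 67.1% and 84.5% of them. Mc1r was at 71.8 and 202 CPM (-1.49, -1.70 to -1.29), in 62.3% and 85.1%. The values in other melanocytes were alike, with log2 ratios of -1.44 for Mitf and -1.502 for Mc1r. The pigment genes of the gate are given as a description. The gate reads them, so a cell low in them could not enter, and no contrast with Mitf is read from them. Dct, the dopachrome tautomerase, was at 15231 CPM in mutant and 9360.4 CPM in control dividing cells, a log2 ratio of 0.70, and Tyrp1 at 5509 and 4217 CPM, a ratio of 0.39. Pmel had a ratio of 0.23 and Mlana, a melanosome protein, of -0.25, all short of the rule. Rab38, which ships pigment enzymes to the melanosome, was at 507 and 927 CPM (-0.87). Npy, a neuropeptide gene picked after its values were seen and not checked for a shared 3' end, was at 734 and 1694 CPM in dividing cells.

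Among genes higher in mutant dividing cells, Neat1, a nuclear noncoding RNA, was at 1108 CPM in mutant and 388 CPM in control (1.51, 1.43 to 1.60). Wdfy1, an endosome protein, was at 128 and 29.3 CPM (2.13, 1.84 to 2.44), in 140 and 76 cells. Gsta4, a glutathione transferase, was at 124 and 37.5 CPM, and Ppargc1a, a co-activator of mitochondrial genes that acts with Mitf in pigment cells, at 665 and 306 CPM. In other melanocytes the same genes had log2 ratios of 1.40 for Neat1, 1.72 for Wdfy1, 1.53 for Gsta4 and 1.09 for Ppargc1a. In dividing cells the list of nuclear oxidative phosphorylation genes had a mutant-over-control median of -0.07. The 13 mitochondrial transcripts had a median of 0.61 there. A tie of either to Ppargc1a was not tested. Others of the 27 were Zyx and Myh9 of the actin cytoskeleton, and Wdr89 and Fam53b, at log2 ratios between 1.23 and 1.46. Csnk2a1, a kinase subunit, had a ratio of 1.29 and is uncertain by its 3' end.

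No replication, mitosis or spindle gene passed the rule between genotypes, but only 6, 9 and 8 of them reached the level to be compared, and 1.58% and 2.87% of all compared genes were higher and lower. The list medians of mutant over control were -0.41 for replication, with 4 of 35 genes positive, -0.08 for mitosis and 0.04 for spindle genes. Mki67 had a log2 ratio of 0.33 and Top2a of 0.39, values that the rule bears on because it reads both genes. Lockd, a noncoding RNA beside Cdkn1b, was at 187 CPM in mutant and 76.3 CPM in control dividing cells (1.29). Hmgn2, a nucleosome-binding protein, was at 55.7 and 142 CPM and is uncertain by its 3' end.

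Of the 49 lower genes 6 were in the keratinocyte marker lists, and for some of these 1 cell held most of the UMIs. Krt73, an inner root sheath keratin, was at 4.73 CPM in mutant and 110 CPM in control dividing cells, found in 8 and 25 of them. S100a3, a hair cuticle protein outside those lists, was at 31.7 and 131 CPM, with 91.4% of the control UMIs in 1 cell. Krt10, an epidermal keratin, was at 29.5 and 123 CPM, with 66.1% of the control UMIs in 1 cell, and Krt35, of the hair cortex and cuticle, at 57.3 and 198 CPM, with 63.7%. Krt15 of the basal layer and Krt28 of the inner root sheath were at 49.3 and 67.3 CPM in mutant, in 42 and 34 cells, against 206 and 207 CPM in control, in 57 and 47 cells. On the higher side Krt16, a keratin of the companion layer and stressed epidermis, was at 197 CPM in mutant and 64.8 CPM in control, with 28.9% and 50.2% of its UMIs in 1 cell. Cells outside the melanocyte gate held more than the dividing cells, in both libraries, for 11 of the 27 higher and 28 of the 49 lower genes. The same share over all compared genes was not counted, so no trait of these genes is read from it.

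**Figure D5:**
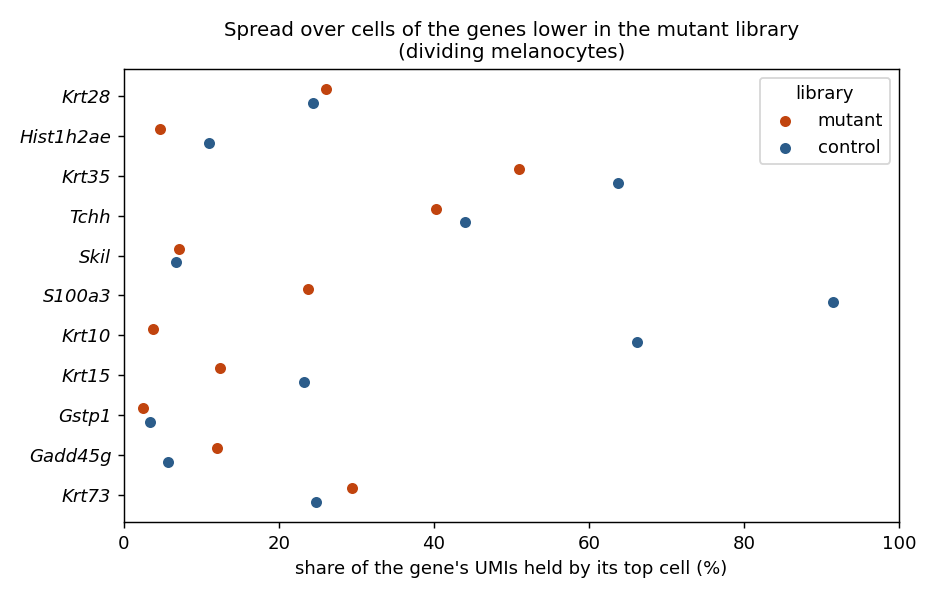
Share of a gene's UMIs held by its top cell (x axis, percent) for 11 named genes that were lower in mutant dividing melanocytes (rows), in the mutant and control libraries. Gstp1 and Skil were spread over many cells in both, and S100a3 lies highest, with 91.4% of its control UMIs in 1 cell.

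A gap between the mutant-over-control ratio in dividing and that in other melanocytes, at least 2-fold with the same rule on bounds, was found for 11 genes upward (0.601% of 1829) and 7 downward (0.383%). The upward set held 4 haemoglobin genes and 7 division genes or histones chosen for naming after their values were seen, among them Tpx2, a spindle assembly factor, with a log2 difference of 1.52, Racgap1, which places the cleavage furrow, with 1.28, and H1f0, a linker histone, with 1.25. Tuba1b had 1.33 (1.19 to 1.48) and is uncertain by its 3' end, as are the haemoglobin genes Hba-a1, Hba-a2 and Hbb-bs. Cdca3, Cenpa and Cenpf had 1.18, 1.07 and 1.06. The division genes among them were near level in dividing cells and lower in mutant other melanocytes. For Tpx2 the log2 ratios were 0.11 and -1.42, and for Cenpf -0.15 and -1.21. A gene entered if either class reached 100 CPM, which Tpx2, Racgap1, Cdca3, Cenpa and Cenpf did only in dividing cells. Other melanocytes were chosen for at most 1 UMI of Mki67 and Top2a. There Tpx2 was at 1.65 and 4.45 CPM in mutant and control, and Cenpf at 5.26 and 12.2 CPM. At such levels in a class so chosen, no difference between the libraries is read from these genes. The downward set was Tchh, Krt73, Krt10, Ly6d, Hist1h2ae, Krt15 and Dapl1, mostly epithelial genes and in part named after their values were seen. Tchh was lowest at -3.64, and Hist1h2ae is uncertain by its 3' end. The 3' ends of Hbb-bt, H1f0, Ly6d and Dapl1 were not checked. These differences carry counting error only and were not tested.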

How the data were processed

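Each deposited matrix holds UMI counts, unnormalized, for every gene in every barcode. Per the file headers, Cell Ranger 3.0.2 made them, from libraries of 10x 3' v3 chemistry per the labels. The build, GRCm38 (mm10), and 2 Seurat versions, 3.0.0 and 3.1.0, are in the submitters' processing notes. All 31055 features were used, which include the tomato and eGFP sequences. Barcodes under 500 detected genes (1396 mutant, 2430 control) or over 15% mitochondrial UMIs (a further 560 and 387) were left out.

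Counts were added up over the cells of a class in each library and scaled to CPM. Log2 ratios used a prior of 0.5 counts and carry exact conditional Poisson intervals, and shares carry exact Clopper-Pearson intervals (scipy 1.17.1). Both cover counting error at 95% only. The class totals were 3593216 UMIs in mutant and 3996091 in control dividing cells, and 18817849 and 17986319 in other melanocytes. Each group is 1 pooled matrix, so no test was run and no p-value was computed, and the sums were checked on simulated data. A list gene counts as measured at a mean of 10 CPM or more over the 4 classes.

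Scrublet ran in scanpy 1.11.5 on each library, and its calls were kept except where stated. It called 3.95% of mutant and 2.96% of control cells, where the expected rates are 10.7% and 13.6%, so leaving out its calls removes only part of the doublets to be expected. Scaling alternatives were the TMM factors of edgeR 4.0.16 and the size factors of DESeq2 1.42.0 (R 4.3.3). Other software was numpy 2.4.6, pandas 2.3.3 and matplotlib 3.10.9. Thinning drew 3000 UMIs per cell, or 6000 as the alternative. Positions are from the GENCODE vM21 annotation of GRCm38.

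Named genes are those of the rule and Fgf5, the 15 genes with the largest ratio of dividing over other among those past the size rule in both libraries, the 12 largest and 12 smallest ratios of mutant over control in dividing cells, up to 6 members per list with the most UMIs, and any list member past the rule. Mitochondrial, ribosomal and unnamed genes were only counted, and some genes that the rule names are not reported here. The members, lists and rules were chosen with earlier results of these data known, so no pattern is independent support for them.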

Additional observations from a re-analysis of the deposited data

Results flagged for a closer look

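In 5 genes the mutant-over-control ratio was past the size rule in opposite directions in dividing and in other melanocytes. The differences were not tested, since each group is 1 matrix. The haemoglobin genes of red cells were higher in mutant dividing cells, with log2 ratios of 1.04 for Hba-a1, 1.11 for Hba-a2, 1.04 for Hbb-bs and 1.02 for Hbb-bt, against -1.97, -1.84, -1.86 and -2.11 in other melanocytes. Their 10490 UMIs in mutant dividing cells came to 96.5% from 5 cells, and their 5637 UMIs in control dividing cells to 88.3%. With a pigment gate of 200 per 10000 the ratio was negative in dividing cells as well for Hba-a1, Hba-a2 and Hbb-bs. Hba-a1, Hba-a2 and Hbb-bs are uncertain by their shared 3' ends, and the 3' end of Hbb-bt was not checked. Tchh, which encodes trichohyalin of the inner root sheath, had a ratio of -1.87 in dividing and 1.78 in other melanocytes. In mutant other melanocytes 88.8% of its 6992 UMIs came from 1 cell, and in control dividing cells 43.9% of its 626 UMIs did.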

How the results depend on the processing

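No paired analysis was possible because each group was deposited as 1 matrix whose barcodes carry no sample number. The log2 ratio of the shares of dividing cells lay between -0.33 and 0.0031 under the alternatives run. Without a minimum level the counts were 572 genes higher and 7 lower in dividing cells in both libraries, 198 higher and 458 lower in mutant, and 36 replication, 23 mitosis, 30 spindle and 6 BMP genes. At a minimum of 300 CPM they were 18 higher in both, 7 higher and 11 lower in mutant, and 0 replication, 1 mitosis, 0 spindle, 2 immediate early and 1 cholesterol gene. These shifts follow from how many genes the minimum admits, and for the rest of this paragraph the cause was not tested. Genes lower in dividing cells in both libraries, 0 as reported, numbered 1 with TMM factors, 1 with DESeq2 size factors, 3 with each cell weighted equally, 1 at a division cut of 4 UMIs and 2 against other melanocytes matched on UMIs. The 2 replication genes became 1 with TMM factors, DESeq2 size factors or the stricter cell filter, 4 with equal weights, without Scrublet calls, at a pigment gate of 200, at a keratin gate of 10 or with cells low in keratinocyte markers, and 5 at the division cut of 4. The 4 immediate early genes became 0 with equal weights, the pigment gate of 200 or the division cut of 4, 1 at the keratin gate of 10 and 2 with cells low in keratinocyte markers. Without thinning the stage shares in mutant were 98.8% for S and 98.8% for G2/M, and in control 97.7% and 98.9%. At 6000 UMIs they were 95.6% for S in mutant, and 94.9% for S and 98.7% for G2/M in control, and without Scrublet calls S was 83.5% in mutant. The mutant-over-control ratio reversed for S100a3 to 0.055 with equal weights, 1.83 at the pigment gate of 200, 0.64 at the division cut of 4 and 1.03 with cells low in keratinocyte markers. It reversed for Krt35 to 1.86 at the pigment gate of 200 and 0.016 with cells low in keratinocyte markers, and for Krt10 to 0.25 with those cells. At the pigment gate of 200 it was -0.68 for Hbb-bs, -1.06 for Hba-a1 and -0.88 for Hba-a2. The setting with cells low in keratinocyte markers was chosen after seeing the data. Ratios of Mitf lay between -1.37 and -1.23, of Mc1r between -1.59 and -1.40, of Id2 between -1.59 and -1.29 and of Neat1 between 1.40 and 1.60. Levels under 100 CPM, such as those of most replication genes, limit what these depths can show.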

Other observations

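Over all measured genes the medians of dividing over other melanocytes were 0.04 in the mutant and 0.01 in the control library. The 11 measured heat shock genes had medians of 0.34 and 0.31, with 11 and 10 positive, and Hspb1, which has a shared 3' end, was past the size rule in both. The 17 genes of nucleotide and amino acid supply had medians of 0.39 and 0.53, and 0 passed the rule in both. The 11 measured p53 targets had medians of 0.32 and 0.15, and of the 3 that reached the level to be compared Cdkn1a and Perp were past the rule in both, where 3.85% of all compared genes were. The 14 genes of ERK feedback, which fibroblast growth factors induce, had a mutant-over-control median of -0.39 in dividing cells and -0.32 in other melanocytes. Mitochondrial transcripts had a mutant-over-control median of 0.61 in dividing cells and 0.63 in other melanocytes, and the median share of mitochondrial UMIs was 7.35% in mutant and 4.56% in control dividing cells.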
